A study of Mus musculus with 24 samples.

Results

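Adgre1, Csf1r, Cd14, Itgam, Cd68, Mertk, Axl, Trem2, Cx3cr1 and Ccr2 are 10 genes by which macrophages, and their passage from blood monocyte to mature tissue cell, are commonly recognised. They were taken as the rows of the count table whose Ensembl identifier maps to these symbols, in all 8 groups. They are 10 of the 55487 genes listed, and all 10 were among the 14099 genes with enough counts to be tested. Macrophages that arise from marrow precursors depend on signals through the receptor Csf1r. As they mature they gain surface molecules such as the F4/80 antigen (Adgre1) and the receptor kinases Axl and Mertk, which serve in engulfing dead cells. The monocyte receptor Ccr2 is usually lost. The complement receptor subunit CD11b (Itgam) is carried by macrophages and also by neutrophils. Stimulated macrophages raise sensors of microbes such as Cd14, and the lipid receptor Trem2 is best known from macrophages and microglia that handle lipid and debris.

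RNA was sequenced from 24 co-cultures, 3 per group. The macrophages were bone-marrow-derived (BMDMs), that is, grown in culture from marrow precursors, and were WT or Tmem175-/-. In all 8 groups they shared the dish with lymphocytes taken from the spleens of mice bearing tumours of B16-F10-OVA, melanoma cells of the mouse engineered to make ovalbumin. WT_none and KO_none received no antigen, WT_Ag and KO_Ag received tumour cell antigen of the same line, and WT_Ag_IL1b, KO_Ag_IL1b, WT_Ag_IL18 and KO_Ag_IL18 received this antigen and 500 pg/ml of IL-1β or of IL-18. The genotype of the lymphocytes, the strain, age and number of the mice and the length of the culture are not given in the sources used here. Nor is it said whether the 3 replicates of a group came from separate mice or cultures, so the p-values measure only the spread between these samples, which may be technical.

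The libraries held 17744540 to 24898552 counts, of which the 10 genes took 0.62% to 0.922%. Tmem175, which encodes a potassium and proton channel of the lysosome, was lower in Tmem175-/- than in WT libraries in every condition, with log2 fold changes of -0.79, -0.91, -0.87 and -0.82, but its RNA was still present, at 14.6 CPM in KO_none against 25.3 in WT_none. CPM are counts scaled to a common library size and show the level of 1 gene across samples. The summed level of the 10 genes lay between 6301 and 6517 CPM without antigen and between 8109 and 9355 with it. Adgre1 weighs most in this change, with means of 1654 CPM in WT_none, 4795 in WT_Ag, 1446 in KO_none and 4500 in KO_Ag. The sum thus does not show a rise of the 10 genes as a set. By contrast, 12 T cell markers summed to 16 to 27.3 CPM, 8 B cell markers to 48.1 to 76.5 and 6 NK cell markers to 4.69 to 8.95 over all libraries. Lymphocyte markers were thus low in every library, although the labels name both kinds of cell. The 11 neutrophil markers summed to 1343 to 1534 CPM without antigen and 885 to 1293 with it, with none at 0, and 8 of 11 fell with antigen in WT and 7 of 11 in Tmem175-/- cultures. The 10 fibroblast markers summed to 39.9 to 115 CPM in WT_none, 141 to 212 in WT_Ag, 18.2 to 36.5 in KO_none and 53.5 to 62.8 in KO_Ag. Of these, 7 of 10 rose with antigen in WT and 5 of 10 in Tmem175-/- cultures, and 6 of 10 were lower in KO_none than in WT_none and 7 of 10 lower in Tmem175-/- in each condition with antigen. Lum was at 0 in KO_none. The shares of all genes called in these comparisons are given below. The part of these other cells in the results below was not tested.

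The levels of different genes were compared per kb of the longest coding transcript. In WT_none the order ran from Cd68 at 1156 CPM per kb over Adgre1 at 511, Trem2 at 495, Csf1r at 391 and Cd14 at 132 to Itgam at 67.9. Mertk at 37.9, Axl at 30, Ccr2 at 14.3 and Cx3cr1 at 2.8 CPM per kb were the lower ones. With antigen the order changed at the top: in WT_Ag, Adgre1 led with 1481 CPM per kb, before Cd68 at 648 and Cd14 at 517, and Trem2 stood at 71.7. Over the 8 group means the highest was 9.03 times the lowest for Trem2, 5.22 times for Cd14, 3.32 for Adgre1, 3.12 for Ccr2, 2.31 for Itgam, 2.15 for Cd68, 2.14 for Axl, 1.86 for Cx3cr1, 1.24 for Csf1r and 1.24 for Mertk. Csf1r, the growth factor receptor, and Mertk thus varied least in level across the study.

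**Figure D1:**
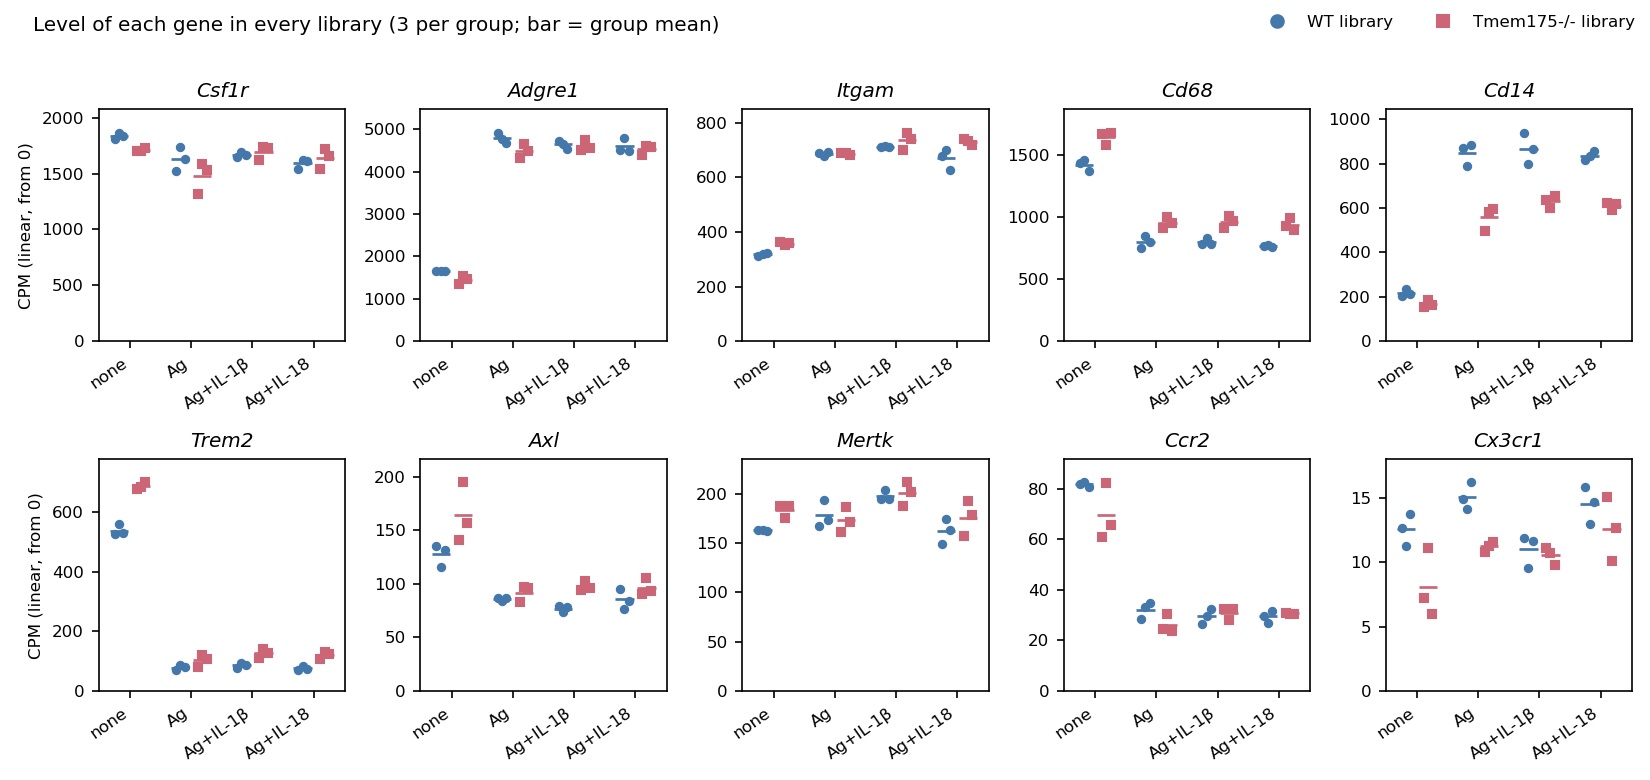
CPM of each of the 10 genes (linear axis from 0) in every library, for no antigen, antigen, antigen with IL-1β and antigen with IL-18; circles are WT and squares Tmem175-/- libraries, and bars are means of 3. The groups with antigen stand apart from those without it for Adgre1, Cd14, Itgam, Cd68, Axl, Trem2 and Ccr2, and the groups of 1 genotype with antigen lie close together.

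The promoters of Trem2, Cd68 and Itgam are shown because Trem2 and Cd68 fell and Itgam rose with antigen, as described next. Each sequence runs 5′ to 3′ along the gene from 250 bases before to 50 bases after its start, from RefSeq on GRCm38.p6, where 7 of the 10 genes had an entry. Capitals mark GAGGAA, the core recognised by the macrophage lineage factor PU.1, and TGAGTCA, the site of AP-1, each searched on both strands, so that TTCCTC is GAGGAA on the other strand. No match overlapped another. Trem2 is at chr17:48346151-48346450 on the plus strand, Cd68 at chr11:69666121-69666420 on the minus strand, and Itgam at chr7:128062390-128062689 on the plus strand.
Trem2: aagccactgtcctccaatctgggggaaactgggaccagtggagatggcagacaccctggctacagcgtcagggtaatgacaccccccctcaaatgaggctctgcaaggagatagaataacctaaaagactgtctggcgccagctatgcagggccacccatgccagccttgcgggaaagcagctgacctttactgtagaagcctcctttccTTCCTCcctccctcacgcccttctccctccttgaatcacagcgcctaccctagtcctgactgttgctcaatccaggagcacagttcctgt
Cd68: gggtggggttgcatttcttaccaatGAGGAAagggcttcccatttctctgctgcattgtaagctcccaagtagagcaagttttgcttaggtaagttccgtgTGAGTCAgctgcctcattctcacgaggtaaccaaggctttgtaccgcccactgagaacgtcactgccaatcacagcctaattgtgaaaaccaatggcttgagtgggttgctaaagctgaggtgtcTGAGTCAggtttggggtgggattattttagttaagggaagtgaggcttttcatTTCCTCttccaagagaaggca
Itgam: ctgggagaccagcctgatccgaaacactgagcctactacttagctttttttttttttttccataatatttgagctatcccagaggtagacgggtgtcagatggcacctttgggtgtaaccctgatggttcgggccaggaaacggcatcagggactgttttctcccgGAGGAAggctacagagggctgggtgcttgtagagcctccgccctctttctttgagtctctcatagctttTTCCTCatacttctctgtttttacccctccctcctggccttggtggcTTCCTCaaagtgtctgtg
Itgam had 3 GAGGAA matches, whose first bases lay at -84, -15 and 32 from the start, Cd68 had 2, at -225 and 29, and Trem2 had 1, at -40. Axl had 1, and Mertk, Cx3cr1 and Ccr2 none. Of 32851 promoters of this length 28.3% held GAGGAA and 4.82% held it at least 2 times. Cd68 also had 2 matches of TGAGTCA, at -149 and -24, a motif held by 5.2% of all promoters and held at least 2 times by 0.222%. The E-box CACGTG, the letters read by the lysosomal factor TFEB, was in none of the 7 windows and in 7.15% of all promoters. A match is a description of letters and not of binding.

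Tumour antigen moved most of the 10 genes, Trem2, Cd14 and Adgre1 furthest. In WT cultures 3 of 10 rose (Cd14, Adgre1 and Itgam) and 5 fell (Trem2, Ccr2, Cd68, Axl and Csf1r), at an adjusted p under 0.05. In Tmem175-/- cultures 4 rose, the same 3 and Cx3cr1, and the same 5 fell. Of all 14099 genes 33.5% rose and 34.5% fell in WT and 33.8% rose and 34.6% fell in Tmem175-/- cultures, so that a call in this comparison is common and the sizes say more than the counts. The median size of the change, regardless of direction, was 0.97 on the log2 scale over the 10 genes in WT and 0.89 in Tmem175-/-, against 0.42 and 0.41 over all genes. The values of the groups compared did not overlap for 10 of 10 genes in WT and for 8 of 10 in Tmem175-/-. How many of all genes separated in this way was not counted, so these counts do not set the 10 genes apart. Counts from a mixed culture cannot tell fewer cells of a type from less RNA per cell.

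Trem2 (ENSMUSG00000023992), a receptor for lipids and apolipoproteins that signals through the adaptor DAP12, changed most. It stood at 526, 559.6 and 529.8 CPM in the WT_none libraries and at 68.9, 86 and 79.2 in WT_Ag. In KO_none it stood at 678, 684 and 700.3 CPM and in KO_Ag at 79.3, 119.7 and 108. Every library with antigen was far below every library without it in both genotypes. It fell 6.88-fold in WT (log2 fold change -2.78 ± 0.137, SE, adjusted p 4.27e-12) and 6.73-fold in Tmem175-/- cultures (-2.75 ± 0.135).

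Cd14 (ENSMUSG00000051439), the co-receptor that passes bacterial lipopolysaccharide to TLR4, rose most. It stood at 203, 233 and 213 CPM in WT_none and at 869, 791 and 885 in WT_Ag, a rise of 3.92-fold (log2 fold change 1.97 ± 0.0811, adjusted p 4.09e-14). In KO_none it stood at 152, 186 and 161 CPM and in KO_Ag at 497, 580.1 and 596, a rise of 3.36-fold (1.75 ± 0.0811). The highest KO_Ag library was below the lowest WT_Ag library.

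Adgre1 (ENSMUSG00000004730), an adhesion G protein-coupled receptor known as F4/80, stood at 1651, 1647 and 1663 CPM in WT_none and at 4927, 4769 and 4689 in WT_Ag (2.9-fold, log2 fold change 1.54 ± 0.0398, adjusted p 4.93e-23). In KO_none and KO_Ag it stood at 1343, 1528 and 1466 and at 4338, 4665 and 4496 CPM (3.11-fold). Itgam (ENSMUSG00000030786), the alpha subunit of the integrin CR3, which binds complement-coated particles, stood at 313, 319.8 and 322 CPM in WT_none and at 688, 677 and 694 in WT_Ag (2.16-fold, log2 fold change 1.11 ± 0.0354). In KO_none and KO_Ag it stood at 362, 351 and 359 and at 688, 689 and 683 CPM (1.92-fold, log2 fold change 0.94 ± 0.0352). The replicates of Itgam lay within a few percent of each other. GAGGAA, shown above in its promoter, was also in those of the falling genes Cd68, Trem2 and Axl. A link of the motif to direction was not tested. Neutrophils also carry Itgam, and 8 of 11 neutrophil markers fell with antigen in WT cultures, as given above. In GENCODE vM21 68.7% of its exonic bases are shared with Gm49368 on the same strand, a gene that had 0 to 5 counts in any library.

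Cd68 (ENSMUSG00000018774), a glycoprotein of late endosomes and lysosomes, fell by less than Trem2. It stood at 1435, 1461 and 1368 CPM in WT_none and at 748, 844 and 801 in WT_Ag (1.78-fold lower, log2 fold change -0.83 ± 0.046, adjusted p 1.61e-15). In KO_none it stood at 1671, 1578 and 1681 CPM and in KO_Ag at 908, 997 and 949 (1.73-fold lower). No library with antigen reached the level of one without. Ccr2 (ENSMUSG00000049103), the chemokine receptor by which monocytes leave the marrow, stood at 82.1, 82.6 and 80.9 CPM in WT_none and at 28.7, 33.4 and 34.7 in WT_Ag (2.53-fold lower, log2 fold change -1.34 ± 0.106, adjusted p 1.21e-09). In KO_none it stood at 61, 82.3 and 65.7 CPM and in KO_Ag at 24.5, 30.5 and 23.6 (2.66-fold lower).

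Axl (ENSMUSG00000002602) and Mertk (ENSMUSG00000014361) are TAM receptor kinases, which meet dead cells through bridging ligands, Gas6 for both and protein S for Mertk. Axl stood at 135, 116 and 132 CPM in WT_none and at 86.7, 83.9 and 87 in WT_Ag (log2 fold change -0.57 ± 0.105, adjusted p 9.57e-05), and at 141, 195 and 157 in KO_none and 82.8, 97.1 and 96 in KO_Ag (-0.84 ± 0.104). Mertk stood at 163, 163 and 162 CPM in WT_none and at 167, 194 and 173 in WT_Ag, and at 187, 176 and 187 in KO_none and 161, 187 and 171 in KO_Ag. Axl fell in both genotypes. The change of Mertk did not pass the test in either, the log2 value being 0.13 (95% interval -0.02 to 0.28) for WT and -0.085 (-0.23 to 0.064) for Tmem175-/- cultures. Its WT value was called without the filter on low counts (adjusted p 0.00811), in a fit of WT_none and WT_Ag alone (adjusted p 0.0114) and under a block for the replicate number (adjusted p 0.0239).

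Csf1r (ENSMUSG00000024621), the receptor on which macrophage survival depends, fell slightly. It stood at 1808, 1867 and 1837 CPM in WT_none and at 1527, 1741 and 1632 in WT_Ag (1.12-fold lower, adjusted p 0.00618), and at 1699, 1701 and 1733 in KO_none and 1319.6, 1583 and 1529 in KO_Ag (1.16-fold lower, adjusted p 0.000959). Without WT_Ag replicate 1 the WT call was lost (log2 fold change -0.12 in place of -0.17, adjusted p 0.0519). Without KO_Ag replicate 1 the value in Tmem175-/- cultures was -0.11 in place of -0.21 and was still called (adjusted p 0.0325). In GENCODE vM21 15.1% of the exonic bases of Csf1r overlap Hmgxb3 on the other strand, which rose with antigen from 23.5 to 38.4 CPM in WT, and whether the counting used strand is not given in the sources used here. Cx3cr1 (ENSMUSG00000052336), the receptor for the membrane-bound chemokine fractalkine, was the lowest of the 10 genes, at 12.7, 11.3 and 13.7 CPM in WT_none and 15, 14.1 and 16.2 in WT_Ag (log2 fold change 0.26, 95% interval -0.059 to 0.59, adjusted p 0.138), with no overlap. In a fit of WT_none and WT_Ag alone this value was called (0.28, adjusted p 0.00666). In KO_none it stood at 7.22, 11.1 and 5.97 and in KO_Ag at 10.8, 11.3 and 11.6 CPM. The rise in Tmem175-/- cultures was called (log2 fold change 0.49, adjusted p 0.0154), but the groups overlapped. It was 0.43 without KO_none replicate 1 (adjusted p 0.0642), 0.31 without KO_none replicate 3 (adjusted p 0.105) and 0.79 without KO_none replicate 2, and in a fit of KO_none and KO_Ag alone the call was lost (adjusted p 0.0746).

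**Figure D2:**
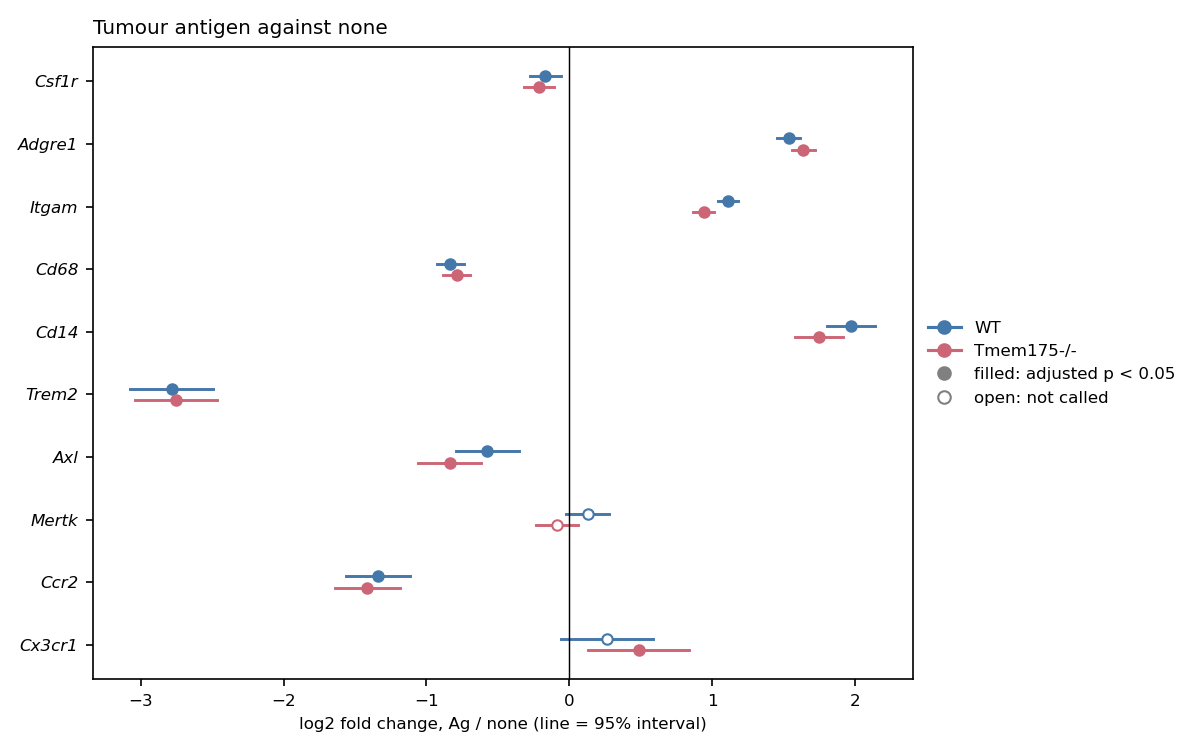
Log2 fold change with antigen against none (x axis) for the 10 genes in WT and Tmem175-/- cultures, with 95% intervals; filled points passed an adjusted p under 0.05. Cd14, Adgre1 and Itgam lie to the right of 0 and Trem2, Ccr2, Cd68, Axl and Csf1r to the left in both genotypes, and the intervals of the genotypes overlap for 9 of 10 genes, all but Itgam.

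Genes that work with these receptors moved in both directions. Of 17 genes around TREM2 and DAP12, 8 rose and 7 fell with antigen in WT, and 9 rose and 6 fell in Tmem175-/- cultures, with median log2 fold changes of -0.04 and 0.25. Lpl, the lipoprotein lipase, fell (log2 fold change -4.22 for WT and -4.33 for Tmem175-/- cultures, the order used below), as did the glucan receptor Clec7a (-3.0 and -3.10), the glycoprotein Gpnmb (-1.30 and -1.54), the apolipoprotein Apoe (-0.62 and -0.83) and Tyrobp, which encodes DAP12 itself (-0.55 and -0.69). The TREM relative Treml4 rose (3.21 and 3.21), as did Ms4a4a, a membrane protein of macrophages (2.37 and 2.59), and the protease inhibitor Cst7 (1.79 and 2.45). Tyrobp stood at 652, 635 and 619 CPM in WT_none and at 420.1, 441 and 442 in WT_Ag, with all 3 libraries with antigen below those without.

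Of 19 genes that serve the TAM receptors and the clearance of dead cells, 5 rose and 11 fell with antigen in WT, and 3 rose and 11 fell in Tmem175-/- cultures. The ligand Gas6 stood at 187, 197 and 192 CPM in WT_none and at 33.1, 37.1 and 32.9 in WT_Ag (log2 fold change -2.48, and -2.22 in Tmem175-/-). Protein S (Pros1), a ligand of Mertk, fell too (-1.36 and -1.25), as did the bridging protein Mfge8 (-2.12 and -2.62) and the scavenger receptors Stab2 (-3.20 and -3.49), Cd36 (-2.69 and -2.59) and Stab1 (-1.52 and -0.92). Timd4, a receptor for phosphatidylserine, fell in WT from 1.09 to 0.183 CPM and averaged under 3 counts per library in both KO_none and KO_Ag. Tyro3, the third TAM receptor, was near the limit of counting at 0 to 0.542 CPM in the libraries of WT_none, KO_none, WT_Ag and KO_Ag. Gas6, Pros1 and Axl thus fell, while the change of Mertk did not pass the test.

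Of 10 β2 integrins and partners, 3 rose and 5 fell in WT, and 4 rose and 5 fell in Tmem175-/- cultures. Itgax, the alpha subunit CD11c, fell most, from 628, 534 and 573 CPM in WT_none to 25.1, 27.3 and 24.2 in WT_Ag (log2 fold change -4.50, and -4.61 in Tmem175-/-), the opposite direction to its relative Itgam. Itgal, the alpha subunit of LFA-1, rose (2.49 and 2.50), Itgad, the alpha subunit CD11d, fell (-2.38 and -1.70), and the shared beta subunit Itgb2 fell slightly (-0.31 and -0.61). The integrin ligand Icam1 rose (0.77 and 1.23), as did Cd47 (0.68 and 0.76), while Tln1, which activates integrins from inside the cell, fell (-0.75 and -0.84). Of 12 genes of CD14 and TLR4 signalling 6 rose and 6 fell in each genotype. Lbp, the carrier of lipopolysaccharide, rose (1.72 and 2.05), as did Tlr2 (1.16 and 2.02) and the adaptor Ticam2 (1.09 and 1.01). The TLR relative Cd180 fell (-1.48 and -1.38), and so did its partner Ly86 (-0.67 and -0.41), the latter not under every alternative in Tmem175-/- cultures. Tlr4 itself fell (-0.68 and -0.37) while its partner Ly96 rose (0.40 and 0.38), so that Cd14 and Tlr4 moved in opposite directions.

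Of the 8 tested genes of the chemokine axis, 5 rose and 1 fell in WT, and 6 rose and 2 fell in Tmem175-/- cultures. Ccl2, the main ligand of Ccr2, stood at 79.8, 132 and 86.1 CPM in WT_none and at 237, 192 and 204 in WT_Ag (log2 fold change 1.09, and 2.57 in Tmem175-/-), and the related chemokines Ccl12 (3.22 and 5.67), Ccl8 (2.25 and 3.75) and Ccl7 (1.01 and 2.79) rose as well. The ligands Ccl2, Ccl7 and Ccl12 thus rose where their receptor Ccr2 fell. Cx3cl1, the ligand of Cx3cr1, was at 0.641 to 1.35 CPM in the WT_none and WT_Ag libraries. Of 19 tested lineage factors and genes of CSF1 signalling 8 rose and 8 fell in WT, and 6 rose and 7 fell in Tmem175-/- cultures. The immediate early factors Egr2 (-4.74 and -5.20) and Egr1 (-1.32 and -1.36) fell, and so did Csf2ra, the alpha chain of the GM-CSF receptor (-1.19 and -1.32). The myeloid factors Cebpa and Cebpb moved apart (-1.28 and -1.57 against 2.53 and 2.36), and Klf4, a factor of monocyte differentiation, rose (1.05 and 1.24). Csf1 did not pass the test with antigen in either genotype (0.087 and 0.35), and Il34 was at 0 to 0.0983 CPM in the WT_none, KO_none, WT_Ag and KO_Ag libraries.

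Of the 4 tested glycoproteins of the lysosomal membrane, 0 rose and 2 fell in WT, and 0 rose and 3 fell in Tmem175-/- cultures, led by Cd63 (-0.68 and -0.85) and Scarb2 (-0.39 and -0.31). Of 18 other macrophage genes 3 rose and 14 fell in each genotype, with medians of -0.47 (WT) and -0.61 (Tmem175-/-) on the log2 scale. The retinal reductase Dhrs3 fell (-2.37 and -2.70), as did the selenium carrier Selenop (-2.10 and -1.91), the lysosomal protease Ctsf (-1.48 and -1.87), the receptor Cd93 (-1.29 and -1.36) and Fgd4 (-1.25 and -1.44), while the high-affinity IgG receptor Fcgr1 rose (1.01 and 1.31). Of 12 monocyte genes 8 rose and 3 fell in WT, and 9 rose and 3 fell in Tmem175-/- cultures, with medians of 1.38 and 1.3, both the same with genes under 3 counts per library in a group at their bound (S100a4 and Ace in WT, Ace in Tmem175-/-). The proteoglycan Vcan rose (4.36 and 4.61), as did Ly6a (4.38 and 3.81), haptoglobin (Hp) (4.24 and 4.12) and the monocyte antigen Ly6c2 (2.41 and 2.25). The median over all genes was within 0.01 of 0 in both. Ccr2, which belongs with the monocyte genes by function, went the other way than most of these. So did Ace, from a mean of 14 counts per library in WT_none to 0 in WT_Ag and from 21.3 in KO_none to 1 in KO_Ag. In WT S100a4 went from 12.7 to 1.67 counts.

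**Figure D3:**
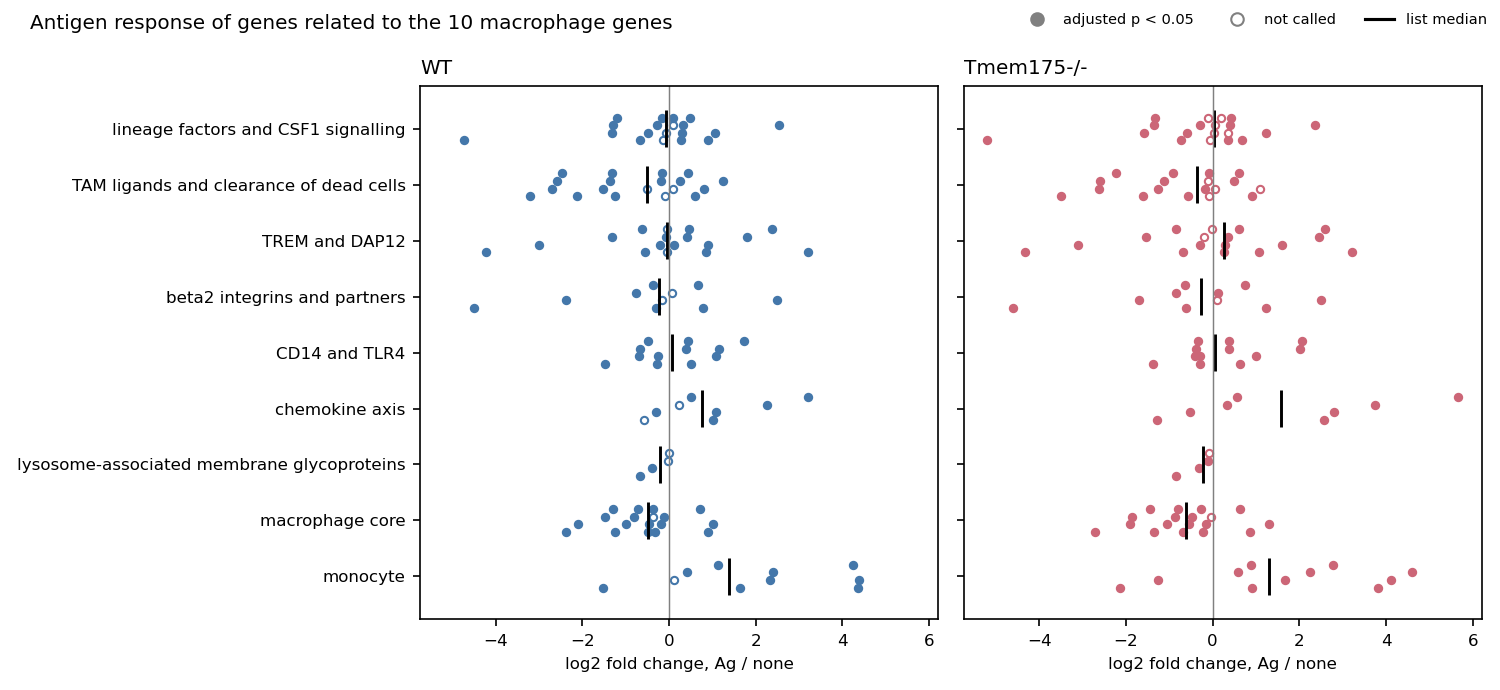
Log2 fold change with antigen against none (x axis) of the tested genes of 9 lists related to the 10 genes (rows), in WT (left) and Tmem175-/- cultures (right); points are genes, filled where called, and bars are list medians with genes under 3 counts in 1 group at their bound. S100a4 and Ace in WT and Timd4 and Ace in Tmem175-/- cultures, which were under 3 counts per library in a group, have no point. The medians of the macrophage core list are -0.47 and -0.61 and those of the monocyte list 1.38 and 1.3.

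Genotype was compared within each condition, the question being what loss of Tmem175 in the macrophages does to their gene expression. The largest difference in any condition was a log2 fold change of 0.66, for Trem2 with antigen and IL-18. For Cx3cr1 the value without antigen, -0.65, was larger in size than its change with antigen in either genotype (0.26 for WT and 0.49 for Tmem175-/- cultures). Without antigen 3 of 10 genes were higher in Tmem175-/- than in WT (Axl, Cd68 and Itgam) and 3 lower (Cx3cr1, Cd14 and Adgre1), where 9.62% of all genes were higher and 7.25% lower. With antigen 1 was higher (Cd68) and 1 lower (Cd14), where 7.7% of all genes were higher and 7.62% lower. With antigen and IL-1β 3 were higher (Trem2, Axl and Cd68) and 1 lower (Cd14), where 7.22% were higher and 6.55% lower, and with antigen and IL-18 3 were higher (Trem2, Cd68 and Itgam) and 1 lower (Cd14), where 9.89% were higher and 10.3% lower. The groups did not overlap for 9, 4, 4 and 4 of the 10 genes in these 4 conditions, and the share of all genes that separated in this way was not counted. With antigen the number called was 4 without KO_Ag replicate 2, with Csf1r and Ccr2 added, and with antigen and IL-1β it was 2 without WT_Ag_IL1b replicate 1 or KO_Ag_IL1b replicate 2, with Axl and Trem2 lost. Over all genes the number called with IL-18 was 2851, and 1867 without WT_Ag_IL18 replicate 3.

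Cd14 was lower and Cd68 higher in Tmem175-/- cultures in all 4 conditions. Cd14 differed without antigen by a log2 fold change of -0.38 ± 0.0802 (adjusted p 0.0023), from 216 ± 15.3 CPM (SD, n = 3) in WT_none to 166 ± 17.8 in KO_none. With antigen the means were 848 ± 50.4 and 558 ± 52.9 CPM, 1.52-fold lower (log2 fold change -0.61 ± 0.0779, adjusted p 1.75e-05). Once IL-1β was added, the WT_Ag_IL1b libraries stood at 939, 798 and 865 CPM and those of KO_Ag_IL1b at 634, 599 and 654 (-0.46 ± 0.0777), and with IL-18 the values were 816, 833 and 855 in WT_Ag_IL18 and 622, 590.2 and 619.5 in KO_Ag_IL18 (-0.45 ± 0.0777). In each condition every Tmem175-/- library was below every WT library.

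Cd68 was higher by a log2 fold change of 0.21 ± 0.0456 without antigen (adjusted p 0.00141) and 0.25 ± 0.0458 with it (adjusted p 0.000195). The WT_Ag_IL1b libraries stood at 781, 835 and 782 CPM and the KO_Ag_IL1b libraries at 908, 1005 and 966 (0.26). WT_Ag_IL18 stood at 768, 771 and 758 and KO_Ag_IL18 at 929.9, 990.4 and 898 CPM (0.29). No library of 1 genotype reached into the range of the other in any condition, and the sizes ran from 1.16-fold to 1.23-fold. Among 4 tested glycoproteins of the lysosomal membrane 2 were higher without antigen, 0 with antigen or with antigen and IL-1β, and 1 with antigen and IL-18. Cd63 was one of the former (0.20), and Lamp1 was called without antigen (0.13, not under every alternative) and with IL-18 (0.16).

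Trem2 was higher in Tmem175-/- cultures with antigen and IL-1β, at 111, 141 and 128 CPM in KO_Ag_IL1b against 77.7, 95.3 and 88.4 in WT_Ag_IL1b (log2 fold change 0.54 ± 0.134, adjusted p 0.0113), and with antigen and IL-18, at 106, 132 and 123 CPM in KO_Ag_IL18 against 69.6, 84.8 and 74.2 in WT_Ag_IL18 (0.66 ± 0.135, adjusted p 0.00226). Without antigen it did not pass the test (0.35 ± 0.125, adjusted p 0.0649), although every KO_none library was above every WT_none library, nor with antigen alone (0.38 ± 0.135, adjusted p 0.0675), where KO_Ag replicate 1 lay within the range of WT_Ag. Both of the latter passed under DESeq2 (adjusted p 0.044 and 0.0318) and under a block for the replicate number (adjusted p 0.00123 and 0.00186). The Trem2 value without antigen also passed in a fit of its libraries alone (adjusted p 4.31e-05), and that with antigen without KO_Ag replicate 1 (log2 fold change 0.55, adjusted p 0.00578). Its call with IL-1β was lost without WT_Ag_IL1b replicate 1 (adjusted p 0.0641), without KO_Ag_IL1b replicate 2 (adjusted p 0.0641) and in a fit of these libraries alone (adjusted p 0.0502).

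Adgre1 was lower in KO_none than in WT_none by a log2 fold change of -0.19 ± 0.0391 (adjusted p 0.000632), and with antigen the difference did not pass the test (-0.092, adjusted p 0.118). The cytokine groups of both genotypes overlapped, with 4739.6, 4655 and 4545 CPM in WT_Ag_IL1b, 4510.3, 4753 and 4556 in KO_Ag_IL1b, 4514, 4799 and 4494 in WT_Ag_IL18 and 4391, 4608 and 4582 in KO_Ag_IL18. Itgam was higher in KO_none (0.17 ± 0.0352, adjusted p 0.000865). With antigen the means, 686 ± 2.93 CPM in KO_Ag and 687 ± 8.66 in WT_Ag (SD, n = 3), differed by less than their spread, and the 95% interval of the log2 fold change was -0.072 to 0.071. With antigen and IL-18 it was called higher, at 739, 734 and 718 CPM in KO_Ag_IL18 against 679, 702 and 628 in WT_Ag_IL18 (0.12, adjusted p 0.0111). That call was lost without WT_Ag_IL18 replicate 3 (log2 fold change 0.079, adjusted p 0.135) and with the compared libraries alone (adjusted p 0.0511). With antigen and IL-1β it stood at 711, 715 and 713 CPM in WT_Ag_IL1b and 702, 764 and 741 in KO_Ag_IL1b, which overlapped. The markers of neutrophils, which also carry Itgam, differed between genotypes too. With IL-18 7 of 11 were higher and 0 lower in Tmem175-/- cultures (median log2 fold change 0.64), summing to 885 to 920.3 CPM in WT_Ag_IL18 and 1063 to 1250.1 in KO_Ag_IL18. With IL-1β 8 of 11 were higher and 0 lower (median 0.73), with antigen alone 2 and 0, and without antigen 1 and 1. Their part in the values of Itgam was not tested.

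Axl was called higher in Tmem175-/- cultures without antigen (0.36 ± 0.102, adjusted p 0.0199) and with antigen and IL-1β, at 94.1, 103 and 96.4 CPM in KO_Ag_IL1b against 79.2, 73.7 and 78.1 in WT_Ag_IL1b (0.35 ± 0.106, adjusted p 0.037). The former was lost without WT_none replicate 2 (adjusted p 0.0935), without KO_none replicate 2 (log2 fold change 0.22, adjusted p 0.116) and with the compared libraries alone (adjusted p 0.248). The latter was lost without any 1 of the 6 libraries compared (adjusted p 0.0521 to 0.134), without the filter on low counts (adjusted p 0.0736) and under a block for the replicate number (adjusted p 0.0513). With antigen and IL-18 Axl stood at 95.5, 76.7 and 84.3 CPM in WT_Ag_IL18 and 90.7, 106 and 93.1 in KO_Ag_IL18 (0.18, adjusted p 0.276), with overlap. Mertk passed the test in none of the 4 conditions, with log2 fold changes of 0.17, -0.044, 0.022 and 0.12. Without antigen, however, every KO_none library lay above every WT_none library. That value passed with the compared libraries alone (adjusted p 0.0126), without the filter on low counts (adjusted p 0.00318) and under the replicate block (adjusted p 0.0115).

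Cx3cr1 was lower in KO_none than in WT_none (-0.65 ± 0.168, adjusted p 0.0103), the largest fold of any of the 10 genes in that comparison, at levels of 8.11 ± 2.69 and 12.6 ± 1.22 CPM (SD, n = 3). The call was lost without WT_none replicate 3 (adjusted p 0.0545), without KO_none replicate 1 (0.0611), without KO_none replicate 3 (0.0768) and with the compared libraries alone (adjusted p 0.15). With antigen, with IL-1β and with IL-18 the log2 fold changes were -0.42, -0.055 and -0.19, none called. The value with antigen, where the groups did not overlap, was called in a fit of WT_Ag and KO_Ag alone (-0.43, adjusted p 0.0027). Ccr2 was not called in any of the 4 conditions (-0.24, -0.31, 0.069 and 0.059). Its value without antigen passed once KO_none replicate 2, at 82.3 CPM the highest of its group, was left out (-0.38, adjusted p 0.00291), and shrank to -0.14 without KO_none replicate 1 (adjusted p 0.436). That with antigen passed without KO_Ag replicate 2 (-0.42, adjusted p 0.022) and under DESeq2 (-0.30, adjusted p 0.0438). Csf1r was not called in any condition either (-0.10, -0.15, 0.023 and 0.042). Without antigen, where the groups did not overlap, it passed with the compared libraries alone (-0.12, adjusted p 0.0224). With antigen alone it passed without WT_Ag replicate 1 (-0.19, adjusted p 0.0216), without KO_Ag replicate 2 (-0.19, adjusted p 0.0221) and without the filter on low counts (adjusted p 0.00413). It shrank to -0.062 without KO_Ag replicate 1 (adjusted p 0.458) and to -0.096 without WT_Ag replicate 2 (adjusted p 0.296).

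**Figure D4:**
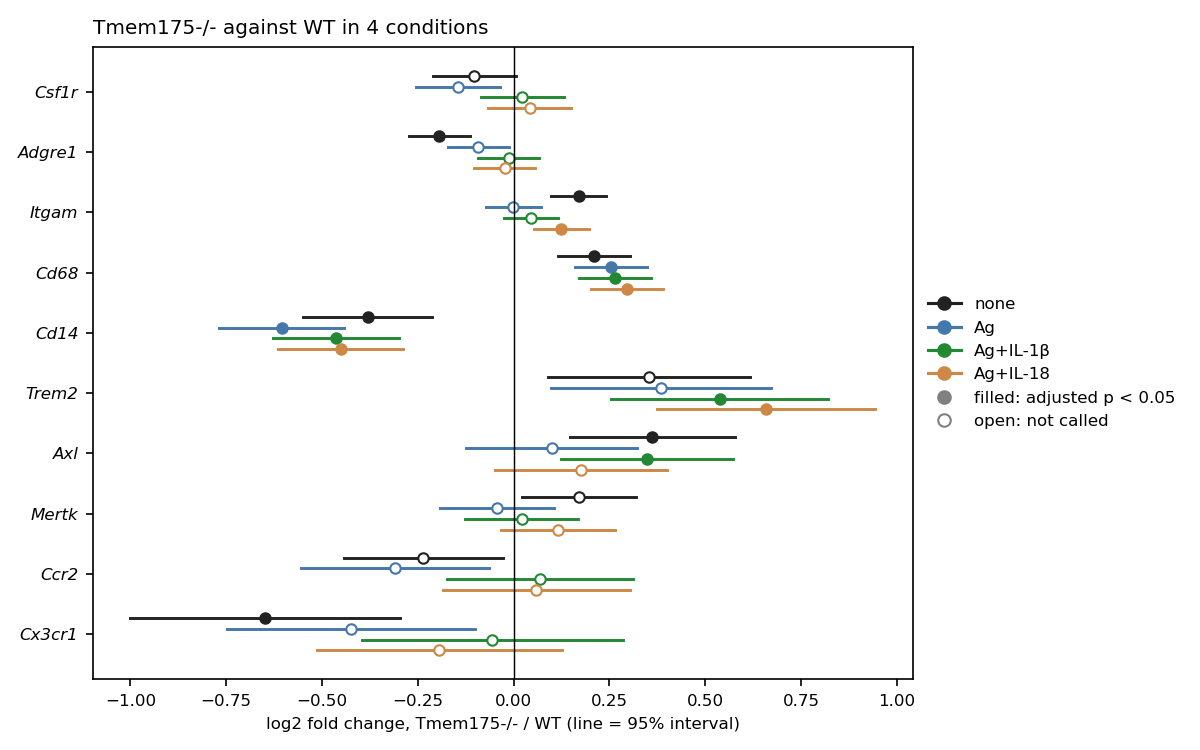
Log2 fold change of Tmem175-/- against WT (x axis) for the 10 genes in 4 conditions, with 95% intervals; filled points passed an adjusted p under 0.05. Cd14 lies to the left of 0 and Cd68 to the right in all 4 conditions, and Trem2 has its largest values, 0.54 and 0.66, in the conditions with a cytokine.

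Partners of the 10 genes also differed between genotypes. For the list counts here and in the next 2 paragraphs, the shares of all tested genes called higher and lower were 9.62% and 7.25% without antigen. They were 7.7% and 7.62% with antigen, 7.22% and 6.55% with IL-1β, and 9.89% and 10.3% with IL-18. Counts of a few genes in a list lie near these shares and do not set the list apart. Csf1, a ligand of Csf1r, was lower in Tmem175-/- cultures in every condition, at 10.5, 10.1 and 10.9 CPM in KO_none against 25.9, 21 and 26.5 in WT_none (log2 fold change -1.22 ± 0.16, adjusted p 1.97e-05), and by -0.96, -0.77 and -0.78 with antigen, with IL-1β and with IL-18. The receptor itself was not called. Of the lineage factors, the orphan receptor Nr4a1 was lower (-0.81) and Egr2 higher (0.50) without antigen. Itgax was higher without antigen (0.74, with 1077, 871 and 946 CPM in KO_none) and Itgad lower (-1.51), and the integrin ligand Icam2 was higher in each condition (0.41, 0.67, 0.61 and 0.61). Of the 10 β2 integrins and partners 4 were higher and 2 lower without antigen, and 2 higher and 2 lower in each condition with antigen. Csf1 is made by fibroblasts as well as by macrophages, and the fibroblast markers were lower in the same libraries, as given above. Their mean sum was also 85.8 CPM in WT_none and 187 in WT_Ag, between which the change of Csf1 did not pass the test. The part of fibroblasts in the values of Csf1 was not tested.

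Stab1 was lower (-0.59) and Nr1h3, the oxysterol receptor LXRα, higher (0.43) without antigen. Cd36, a scavenger receptor for oxidised lipids, was higher in Tmem175-/- cultures in each condition (0.54, 0.64, 0.77 and 0.70), and the TAM ligand Pros1 as well (0.20, 0.31, 0.44 and 0.48). The other TAM ligand, Gas6, was lower without antigen (-0.42) and not called with it (-0.17), but the difference in its antigen response did not pass the test (0.25, adjusted p 0.336). Of the 19 genes of dead cell clearance 7 were higher and 4 lower without antigen, 3 higher and 0 lower with antigen, 3 higher and 0 lower with IL-1β, and 4 higher and 2 lower with IL-18. Around Trem2, Clec7a was higher in each condition (0.58, 0.48, 0.53 and 0.79, the second not under every alternative), Treml2 in the 3 conditions with antigen (0.50, 0.56 and 0.57) and Apoe in 3 of 4 (0.33, 0.31 and 0.29). In that list 5 were higher and 3 lower without antigen, 4 and 1 with antigen, 7 and 1 with IL-1β, and 7 and 3 with IL-18, of 17 tested.

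Beside Cd14, Tlr2 was lower without antigen (-0.94), and of the 12 genes of CD14 and TLR4 signalling 2 were higher and 1 lower in each of the 4 conditions. Tlr4 was not called in any (-0.13, 0.18, 0.24 and 0.23). Of the 8 tested genes of the chemokine axis 0 were higher and 3 lower without antigen, and 2 to 3 higher and 1 lower in the conditions with it. Ccl2 stood at 40.1, 42.2 and 41 CPM in KO_none against 79.8, 132 and 86.1 in WT_none (-1.27), and Ccl7 was lower too (-1.47). In the conditions with antigen Ccl8 was higher (1.05, 0.95 and 1.10) and Cx3cl1 lower (-1.56, -2.01 and -1.60, at levels at or under 1.22 CPM). Of the 18 other macrophage genes 3 were higher and 2 lower without antigen, 1 and 2 with antigen, 3 and 2 with IL-1β, and 5 and 2 with IL-18, with Ctsf lower in all 4 (-0.32, -0.71, -0.63 and -0.74, the value without antigen not under every alternative). Of the 12 monocyte genes 1 was higher and 4 lower without antigen, 3 and 3 with antigen, 3 and 1 with IL-1β, and 3 and 2 with IL-18. Of the 19 lineage and CSF1 genes 6 were higher and 3 lower without antigen, 2 and 3 with antigen, 2 and 2 with IL-1β, and 3 and 3 with IL-18.

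The antigen response was then compared between genotypes as a difference of log2 fold changes, Tmem175-/- minus WT. Of the 10 genes 1, Itgam, passed the test (-0.17 ± 0.0495, adjusted p 0.0297), where 8.39% of all genes did. Itgam rose 2.16-fold in WT and 1.92-fold in Tmem175-/- cultures, and the KO_none libraries, as given above, began higher. This call was lost when any 1 of 8 of the 12 libraries was left out (WT_none replicate 1, WT_Ag replicates 1 and 3, KO_none replicates 1 and 3, and KO_Ag replicates 1, 2 and 3, adjusted p 0.0505 to 0.109), while the difference stayed between -0.18 and -0.15. For Trem2 the difference was 0.032 (95% interval -0.36 to 0.42), for Cd14 -0.22 (-0.46 to 0.01), for Cd68 0.045 (-0.087 to 0.18), for Adgre1 0.10 (-0.011 to 0.22) and for Ccr2 -0.075 (-0.40 to 0.25). For Axl it was -0.26 (-0.57 to 0.048), for Mertk -0.21 (-0.42 to -0.0037), for Csf1r -0.043 (-0.20 to 0.11) and for Cx3cr1 0.22 (-0.26 to 0.70). Mertk passed without the filter on low counts (adjusted p 0.0277) and under the replicate block (adjusted p 0.041). Among the partners, the rise of Ccl2, Ccl12 and Tlr2 was larger in Tmem175-/- cultures (differences of 1.49, 2.45 and 0.86), that of Treml2 as well (0.69), and the fall of Stab1 smaller (0.59). The larger rise of Ccl7 (1.78) was lost with the compared libraries alone (adjusted p 0.0677).

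Adding a cytokine to antigen changed none of the 10 genes past the threshold of edgeR's test. With IL-1β 0 of 10 were called in WT, where 0.0567% of all genes (8) were, and 0 of 10 in Tmem175-/- cultures, where 0.0426% (6) were. At an unadjusted p under 0.05 there were 1 of the 10 and 1319 of the 14099 tested genes in WT. In Tmem175-/- cultures there were 6 of the 10 and 1882 of all tested genes. With IL-18 0 of 10 were called in WT, where 0% of all genes were, and 0 of 10 in Tmem175-/- cultures, where 0.213% (30) were, with 0 and 2 at an unadjusted p under 0.05. DESeq2 called 0, 1, 0 and 0 of the 10 in these 4 comparisons. Of all genes, 580 had an unadjusted p under 0.05 with IL-18 in WT, where DESeq2 called 0, and 1748 had one with IL-18 in Tmem175-/- cultures. The counts over all genes moved with single libraries. With IL-1β in WT the 8 became 3 without WT_Ag replicate 1 or WT_Ag_IL1b replicate 3, and 2 without WT_Ag replicate 3 or WT_Ag_IL1b replicate 2. With IL-1β in Tmem175-/- cultures the 6 became 284 without KO_Ag replicate 2, 18 without KO_Ag_IL1b replicate 1, 2 without KO_Ag_IL1b replicate 3 and 1 without KO_Ag replicate 1 or 3. With IL-18 there, the 30 became 175 without KO_Ag replicate 2, 233 without KO_Ag_IL18 replicate 2 and 0 without any 1 of the other libraries compared.

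The 6 genes in Tmem175-/- cultures with IL-1β all had higher means than with antigen alone, and the groups overlapped for Trem2 and Ccr2. Csf1r stood at 1621, 1738 and 1733 CPM in KO_Ag_IL1b and at 1319.6, 1583 and 1529 in KO_Ag (log2 fold change 0.20 ± 0.0525, adjusted p 0.14), with no overlap, and was the gene DESeq2 called (adjusted p 0.0456). It was also called by edgeR without the filter on low counts (adjusted p 0.000213) and without KO_Ag replicate 2 (adjusted p 0.027), and its value was 0.12 without KO_Ag replicate 1 (adjusted p 0.742). Mertk stood at 188, 211 and 202 CPM in KO_Ag_IL1b (0.21, adjusted p 0.211, and 0.00459 without the filter), Itgam at 702, 764 and 741 (0.10, adjusted p 0.213), Cd14 at 634, 599 and 654 (0.17) and Trem2 at 111, 141 and 128 (0.31). Ccr2 stood at 32.6, 28.1 and 32.3 CPM against 24.5, 30.5 and 23.6 in KO_Ag (0.25). In WT cultures Mertk stood at 195, 203 and 194 CPM in WT_Ag_IL1b (0.15, 95% interval -0.00054 to 0.30) and Cx3cr1 at 11.9, 9.53 and 11.6 (-0.46, adjusted p 0.395), the 1 gene there with an unadjusted p under 0.05. With IL-18 Mertk stood at 149, 174 and 163 CPM in WT_Ag_IL18 and 157, 192 and 178 in KO_Ag_IL18, Csf1r at 1541, 1625 and 1610.0 and 1539, 1723 and 1655, Ccr2 at 29.8, 27 and 31.8 and 31, 30.6 and 30.5, and Cx3cr1 at 15.9, 13 and 14.7 and 15.1, 10.1 and 12.6. With IL-18 the groups did not overlap with those of antigen alone for 0 of 10 genes in WT and 2 of 10 in Tmem175-/- cultures, again without a count over all genes. The remaining cytokine values were 1647, 1696 and 1668 CPM for Csf1r, 26.5, 29.7 and 32.3 for Ccr2 in WT_Ag_IL1b, and 11.1, 10.7 and 9.79 for Cx3cr1 in KO_Ag_IL1b. Over the 4 comparisons the 10 log2 fold changes ran from -0.46 to 0.16 with IL-1β in WT, -0.09 to 0.31 with IL-1β in Tmem175-/-, -0.14 to -0.0071 with IL-18 in WT and -0.018 to 0.24 with IL-18 in Tmem175-/- cultures.

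The difference between genotypes in the cytokine responses was tested as well. For IL-1β 0 of 10 genes were called, where 0% of all genes were by edgeR, 576 genes and 2 of the 10 (Csf1r and Ccr2) had an unadjusted p under 0.05, and DESeq2 called 0 genes. For IL-18 0 of 10 were called, where 0% of all genes were, 919 genes and 3 of the 10 (Csf1r, Itgam and Ccr2) had an unadjusted p under 0.05, and DESeq2 called 1 gene. The 10 differences were all above 0, from 0.0097 to 0.38 for IL-1β and from 0.041 to 0.37 for IL-18, and both rest on the same KO_Ag and WT_Ag libraries. The cytokine comparisons of a genotype share these antigen libraries, so their values are not independent of each other.

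Across the 24 libraries the level of 1 gene was set beside every other gene as a description, by Pearson's r of log2 CPM over 9894 genes; the libraries share groups, depth and the antigen contrast, and no p is given. The gene most like Adgre1 was Ass1 (r = 0.998), that most like Trem2 Cd300a (0.998), most like Itgam Mmp14 (0.996), most like Cd14 Pid1 (0.994), most like Cd68 Cd36 (0.992), most like Ccr2 Idi1 (0.981) and most like Axl Prcp (0.955). The next in order were Fpr2 and N4bp1 for Adgre1, Atp6v0d2 and Crip1 for Trem2, Pgap2 and Bst1 for Itgam, Marco and Birc3 for Cd14, Il7r and Sema4d for Cd68, Bzw2 for Ccr2, and Mmgt1 and Apoe for Axl. Csf1r (Tifab, 0.872), Cx3cr1 (Fyn, 0.842) and Mertk (Acsf2, 0.836) had no gene above 0.9. Among the 10 genes themselves Cd68 and Trem2 ran together (0.983), as did Adgre1 and Itgam (0.978), and Cd14 and Cd68 ran opposite (-0.985).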

How the data were processed

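Counts per gene were used as the authors deposited them, in 1 table of 24 libraries. Per the labels' protocols RNA was taken with Trizol and libraries were made by poly(A) selection. Per the submitters' processing notes fastp and GRCm39 were used. The aligner, the counter, the strand setting and further versions are not given in the sources used here. Groups and replicate numbers came from sample titles, since the genotype field of 11 of 12 Tmem175-/- samples names another gene. Of 55487 genes, 14099 passed edgeR's expression filter and held 99.937% of the counts.

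Counts were scaled by TMM and fitted with edgeR 4.0.16 (R 4.3.3), a quasi-likelihood test over all 8 groups with 16 residual degrees of freedom. The 13 comparisons, 3 of them genotype differences of responses, were each adjusted by Benjamini-Hochberg over all tested genes, and an adjusted p under 0.05 was called. A prior count of 2 was used only for the log2 CPM behind the likeness and the pair correlations. Standard errors were computed from the log2 fold change and the F statistic of the test, and intervals are 95%. Replicates of a group differed by more than sampling noise (chi-square per degree of freedom 1.43 to 15.3), and none was merged. The steps were tested on simulated data. The 10 genes, their lists and the tests were chosen with earlier results of these data known, so they are not independent of them. All 10 genes are described. Of each list at most 6 called genes were named, by size of change, with direct ligands and partners beside them; some of these were left out, and Hmgxb3 and Gm49368 were added after their values were seen. For likeness at most the 3 closest genes were taken. Alternatives were median-of-ratios factors, DESeq2 1.42.0, no filter, a replicate block, the compared libraries alone and each library left out.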

Additional observations from a re-analysis of the deposited data

Results flagged for a closer look

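The rise of Itgam with antigen differed between genotypes by -0.17 on the log2 scale, Tmem175-/- minus WT, which passed edgeR's test of the difference (adjusted p 0.0297). Its log2 fold change was 1.11 in WT and 0.94 in Tmem175-/- cultures, and all 3 KO_Ag libraries lay above all 3 KO_none libraries, as all 3 WT_Ag lay above all 3 WT_none. Itgam was higher in KO_none than in WT_none, and the KO_Ag and WT_Ag libraries overlapped. The call was lost without any 1 of 8 of the 12 libraries (adjusted p 0.0505 to 0.109).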

How the results depend on the processing

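Of 130 log2 fold changes, those of the 10 genes in 13 comparisons, 34 were called. Of these 26 kept their call under every alternative run and 8 lost it under at least 1, and none of the 34 turned direction. Of the 96 that missed, 16 passed under at least 1 alternative, 5 of these in a cytokine comparison. Under the replicate block Csf1r passed in KO_none against WT_none (adjusted p 0.0366) and in KO_Ag against WT_Ag (adjusted p 0.0028). Of 388 calls among related genes, 302 kept their call and 86 lost it under at least 1 alternative. Of the number of the 10 genes called, that for KO_Ag against WT_Ag was 2, but 4 with DESeq2, 4 with the replicate block and 2 to 4 with 1 library left out, and that for KO_Ag_IL1b against WT_Ag_IL1b was 4, but 2 to 3 with 1 left out. For WT_Ag_IL1b against WT_Ag it was 0, but 1 with the compared libraries alone (Cx3cr1). For KO_Ag_IL1b against KO_Ag it was 0, but 1 with DESeq2, 2 without the filter, 3 with the replicate block (Csf1r, Mertk and Trem2) and 0 to 1 with 1 library left out. For KO_Ag_IL18 against KO_Ag it was 0, but 1 without the filter and 1 with the replicate block. For the genotype difference in the antigen response it was 1, but 2 without the filter, 2 with the replicate block and 0 to 1 with 1 library left out. The cause was not tested.

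Direction turned under at least 1 alternative for 29 values, none of them called, 18 of these in a cytokine comparison. With 1 library left out, KO_Ag against WT_Ag ran from -0.0093 to 0.013 for Itgam (0.0044 without the filter) and -0.094 to 0.023 for Mertk. KO_Ag_IL1b against WT_Ag_IL1b ran from -0.035 to 0.011 for Adgre1, -0.018 to 0.075 for Mertk and -0.15 to 0.0021 for Cx3cr1. KO_Ag_IL18 against WT_Ag_IL18 ran from -0.042 to 0.0057 for Adgre1, -0.00039 to 0.086 for Csf1r and -0.0061 to 0.11 for Ccr2. The genotype difference in the antigen response ran from -0.090 to 0.049 for Csf1r, -0.078 to 0.20 for Trem2 and -0.18 to 0.061 for Ccr2.

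Over all genes, counts of calls moved by more than 1.5 times mainly in the cytokine comparisons: WT_Ag_IL1b against WT_Ag from 8 to 79 without the filter, 102 with the replicate block and 46 alone; KO_Ag_IL1b against KO_Ag from 6 to 50 with DESeq2, 287 without the filter and 422 with the block; KO_Ag_IL18 against KO_Ag from 30 to 245 with DESeq2, 302 without the filter, 274 with the block and 0 alone. WT_Ag_IL18 against WT_Ag moved from 0 to 2 without the filter, 1 with the block and 2 alone, the genotype difference in the IL-1β response from 0 to 1 without the filter, and that in the IL-18 response from 0 to 1 with DESeq2, 17 without the filter, 5 with the block and 3 without KO_Ag replicate 2. KO_Ag_IL18 against WT_Ag_IL18 moved from 2851 to 1867 without WT_Ag_IL18 replicate 3. By the labels same-numbered samples share only a number. In the data 13 of 30 pair correlations of deviations exceeded 0.1 (0.00157 to 0.229), and no comparison had all 3 above it. Of the 24 libraries 21 correlated best with their own number, a hint from the data and not the design. Whether same-numbered libraries share anything beyond the number was not tested, and the main fit had no replicate block. The block raised the count of calls in KO_none against WT_none from 2379 to 2876. Cx3cr1, the lowest of the 10 genes, had 133 to 337 counts per library. The part of depth in its lost calls was not tested.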
